A study of Rattus norvegicus with 46 samples.

Results

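The liver and the quadriceps muscle of rats were compared for how far each gene's response to CagriSema differed between the 2 tissues. The drug joins 2 peptides, cagrilintide, which mimics the pancreatic hormone amylin, and semaglutide, which activates the receptor of the gut hormone GLP-1. Of the 46 bulk RNA libraries of the series, 30 carry this comparison, namely those of rats given the drug or vehicle. They were 8 vehicle and 7 CagriSema livers and 7 vehicle and 8 CagriSema quadriceps. All libraries were labelled wild type. The series' description, which speaks of liver, calls the rats DIO (diet-induced obese) and gives 20 days of treatment; for muscle no duration or diet is given. The labels used here state no dose, sex, age or strain. The remaining 16 libraries, 8 per tissue, came from rats whose food was restricted to match the body weight of the drug group. They served for a direct test of the drug against weight matching. They also entered the same fit as the 30, and so its filter, its scaling and its estimate of the spread. Whether every library is from its own rat is not labelled, and p-values therefore measure only the spread among libraries. What is reported for each gene is the difference between 2 log2 fold changes, CagriSema against vehicle in liver minus CagriSema against vehicle in quadriceps. A positive value means that the fold change was higher in liver.

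Amylin and GLP-1 curb feeding through receptors in the brain, so drugs of this kind reach liver and muscle in part through a lower intake of food. The amylin receptor is a calcitonin receptor (Calcr) joined to a small partner protein of the Ramp family. Liver answers food supply through the synthesis of lipids, sterols and amino acid products such as taurine, and muscle through its fuel use, its contractile proteins and the collagen scaffold around its fibres. Both tissues contain blood vessels and matrix-forming cells, so the same matrix gene can be followed in each.

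Total counts ran from 9987638 to 15948219 in the 15 liver libraries and from 11462369 to 16525274 in the 15 quadriceps libraries. Hepatocyte markers summed to at least 79910 CPM (the usual depth-scaled count, here also scaled for library composition) in liver and at most 49.5 CPM in quadriceps, and myofibre markers to at least 120000 CPM in quadriceps and at most 90.8 CPM in liver. Some vehicle libraries stood apart. In liver, ribosomal protein genes took 1.87% of the counts of vehicle library 4, and mitochondrially encoded genes took 9.29% of those of vehicle library 6, each the highest share among the 15 livers. In quadriceps, the 12 markers of fibroblasts and stellate cells summed to 7302 CPM in vehicle library 2 and 6370 CPM in vehicle library 5, against 4125 to 5170 CPM in the other 13. Vehicle library 2 also held the highest summed cholangiocyte markers (213 CPM, next highest of the 15 quadriceps 18.2 CPM). Among the weight-matched quadriceps, library 27 stood at 69.0 CPM. The fits were therefore run with all libraries and again without these 4, namely vehicle livers 4 and 6 and vehicle quadriceps 2 and 5. That leaves 6 vehicle livers and 5 vehicle quadriceps. Vehicle quadriceps 8, with the highest mitochondrial share (22.8%) and the highest summed endothelial markers (439 CPM) of the 15 quadriceps, was kept.

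The response to the drug differed between the tissues in 21 of the 14110 genes tested, which is 0.149% (quasi-likelihood F test in edgeR, p adjusted by Benjamini-Hochberg, threshold 0.05). The fold change was higher in liver for 12 of them (0.085% of genes tested) and lower in liver for 9 (0.0638%). Genes of the extracellular matrix (Col6a1, Col6a2, Col4a2 and Sparc) and the taurine synthesis gene Csad were among those higher in liver. Ccdc126, Vgll4 and Rnf144b were among those lower in liver. At an unadjusted p under 0.05 there were 2117 genes, or 15.0%. In the same fit the drug changed 429 genes in liver (3.04%), of which 153 rose (1.08%) and 276 fell (1.96%). In quadriceps it changed 14 genes (0.0992%), of which 1 rose (0.00709%) and 13 fell (0.0921%). This fit held all 46 libraries, the weight-matched ones included. With the 30 libraries alone, 9 of 13834 genes passed for the tissue difference, 8 of them among the 21. There 86 genes passed in liver and 2 in quadriceps. Liver and quadriceps libraries share numbers, which the labels do not tie to an animal. With the number as a block, 10 genes passed for the tissue difference, 9 of them among the 21. Csad, Ccdc126, Rnf144b, Col6a1 and Col6a2 were among the 9, and Vgll4, Sparc and Col4a2 were not.

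For 19 of the 21 genes the fitted changes in the 2 tissues had opposite signs. Picking genes by a large difference itself favours opposite signs. Several of the smaller values did not exceed their SE, such as Casz1 (-0.02 ± 0.12) and Tymp (0.06 ± 0.12) in quadriceps and Sparc (0.10 ± 0.11) in liver. No gene passed in both tissues, so opposite responses were not shown for any single gene. The signs were positive in liver and negative in quadriceps for 11 genes and the reverse for 8. For Csad and Vgll4 both changes had the same sign and the one in liver was larger. The change passed its own test in liver alone for 15 of the genes, in quadriceps alone for Sparc, Tspan9 and the unnamed gene AABR07068316.1, and in neither tissue for Col6a2, Vcam1 and Col4a2. Of the 21 genes 20 had a mean of at least 1 CPM in each tissue, out of 10354 such genes (0.193%). Casz1 was the exception. Myh4 and Acta1 reached that mean in liver (2.52 and 1.27 CPM) only through vehicle library 1, as described further on.

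**Figure D1:**
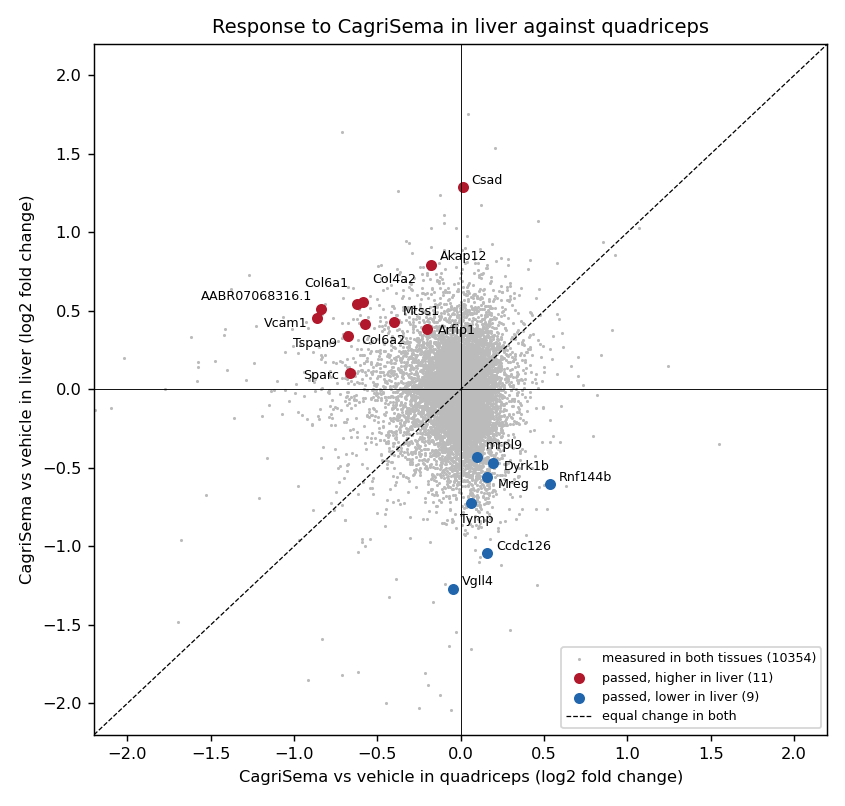
Each point is 1 of the 10354 genes measured in both tissues, with its log2 fold change for CagriSema against vehicle in quadriceps on the horizontal axis and in liver on the vertical axis. Red marks 11 genes that passed with a higher change in liver and blue 9 with a lower one; Myh4, Acta1 and 2 other genes lie outside the axes, and Casz1 was not measured in both tissues.

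Leaving out the 4 vehicle libraries lowered the number of genes from 21 to 9 of 14261 (0.0631%), 2 higher (0.014%) and 7 lower (0.0491%) in liver, and 5 of the 9 were among the 21. These 5 were Csad, Ccdc126, Vgll4, Rnf144b and Myh4, of which Myh4 rests on vehicle liver 1, as described further on. The other 4, named after their values were seen, were Neurl2 (-0.81 ± 0.17, log2 difference ± SE, adjusted p = 0.0429), LOC102552166 (-1.37 ± 0.27, adjusted p = 0.0320), Usp54 (-0.57 ± 0.12, adjusted p = 0.0440) and Bcl6b (0.98 ± 0.21, adjusted p = 0.0429) by the same edgeR test. In that fit 157 genes passed in liver (1.10%) and 0 in quadriceps, where 690 had an unadjusted p under 0.05 (4.84%). With vehicle quadriceps 2 and 5 alone left out 3 genes passed, and with vehicle livers 4 and 6 alone left out 34 did.

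Csad (ENSRNOG00000011573) encodes cysteine sulfinic acid decarboxylase, which makes the precursor of taurine. In vehicle livers its level ran from 68.1 to 256 CPM with a median of 104, and in CagriSema livers from 218 to 426 CPM with a median of 280. In quadriceps the mean was 11.1 ± 1.42 CPM (SD, n = 7) with vehicle and 11.2 ± 1.17 CPM (n = 8) with the drug. The liver groups overlapped through vehicle library 4 alone, at 256 CPM, while the quadriceps groups lay on top of each other. The log2 fold change was 1.29 ± 0.17 (SE, adjusted p = 1.08e-05) in liver and 0.01 ± 0.18 (adjusted p = 1) in quadriceps, and the difference was 1.27 ± 0.25 (adjusted p = 0.0133). Leaving out the 4 libraries gave a difference of 1.71 ± 0.20 (adjusted p = 2.87e-06). Csad was the one called member of 19 tested genes of taurine, methionine and glutathione metabolism (0.149% of all genes tested passed). The 14 members of this list measured in both tissues had a median difference of -0.06.

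Ccdc126 (ENSRNOG00000009322), which encodes a coiled-coil protein, had the lowest p. Its level was 12.5 to 21.4 CPM in vehicle livers (median 16.2) and 6.53 to 9.32 CPM in CagriSema livers (median 7.29), with no overlap. In quadriceps it was 4.66 to 10.3 CPM (median 7.72) with vehicle and 6.64 to 9.78 CPM (median 8.69) with the drug, and the groups overlapped. Its fall in liver was -1.04 ± 0.14 and its value in quadriceps 0.16 ± 0.14, a difference of -1.20 ± 0.20 (adjusted p = 0.00283), or -0.93 ± 0.18 (adjusted p = 0.0320) without the 4 libraries.

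Vgll4 (ENSRNOG00000007822) encodes a cofactor that competes with YAP for the TEAD transcription factors of the Hippo pathway. It went from 9.47 to 22.9 CPM (median 15.1) in vehicle livers to 4.84 to 9.07 CPM (median 5.90) in CagriSema livers, again without overlap. In quadriceps it stayed within 7.17 to 9.92 CPM with vehicle and 6.52 to 9.998 CPM with the drug. The log2 difference was -1.22 ± 0.24 (adjusted p = 0.0138) with all libraries and -1.20 ± 0.25 (adjusted p = 0.0429) without the 4. Vgll4 did not pass with the library number as a block.

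Rnf144b (ENSRNOG00000016123) encodes a ubiquitin ligase, and its values in the 2 tissues had opposite signs. Its level was 78.6 to 143 CPM (median 105) in vehicle livers and 55.8 to 82.5 CPM (median 65.7) in CagriSema livers. In quadriceps it was 16.5 to 39.2 CPM (median 33.3) with vehicle and 35.6 to 54.8 CPM (median 41.5) with the drug. Both pairs of groups overlapped at their edges, and the lowest vehicle quadriceps was library 2. It fell in liver (-0.60 ± 0.14, adjusted p = 0.0133), its value in quadriceps was 0.53 ± 0.14 (adjusted p = 0.0916), and the difference was -1.14 ± 0.19 (adjusted p = 0.00322). With the 4 libraries left out the difference was -0.95 ± 0.18 (adjusted p = 0.0320) and the quadriceps value 0.34 ± 0.13 (adjusted p = 0.857).

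**Figure D2:**
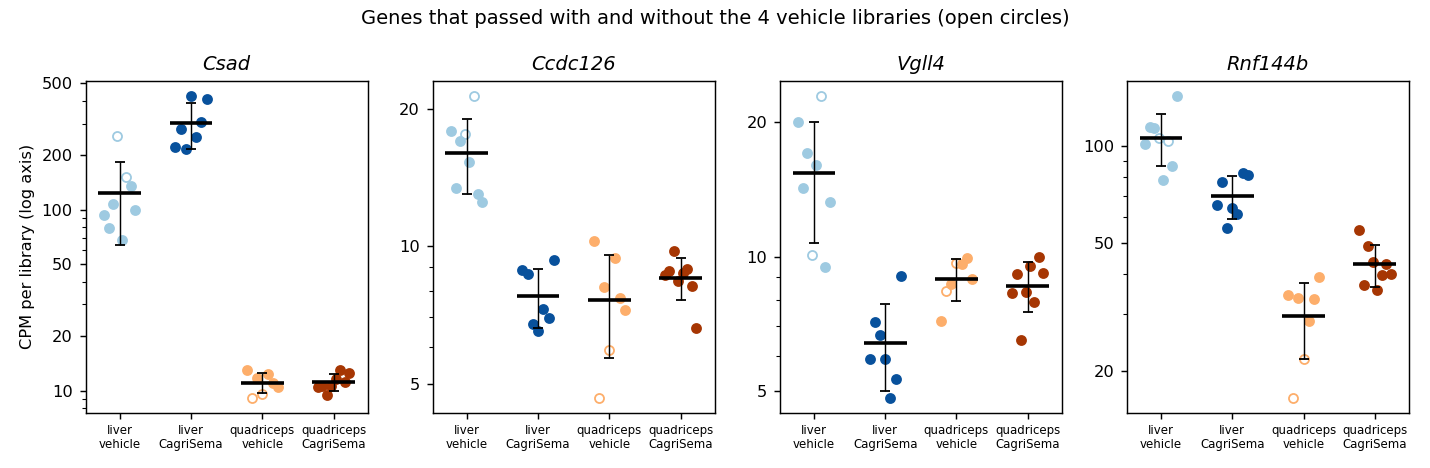
Level of Csad, Ccdc126, Vgll4 and Rnf144b in CPM (log axis) in each of the 30 libraries, by tissue and treatment, with lines for the group mean and bars for 1 SD. Open circles are vehicle livers 4 and 6 and vehicle quadriceps 2 and 5; the drug moved Csad up to a median of 280 CPM and Ccdc126 and Vgll4 down to 7.29 and 5.90 CPM in liver, while their quadriceps groups overlapped.

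Matrix genes made up 4 of the 12 genes with a higher change in liver. Collagen VI is a beaded microfibril that surrounds cells in many tissues, collagen IV forms the mesh of basement membranes, and Sparc is a secreted collagen-binding protein. All 19 measured members of the collagen and matrix list had a positive difference, against 50.3% of the 10354 genes measured in both tissues. Their median difference was 1.08, from a median of 0.38 in liver and -0.69 in quadriceps, beside a median of 0.0013 over all genes. Col6a1, Col6a2 and Sparc passed among 22 tested (0.149% of all genes tested did). Of the 19, 16 had an unadjusted p under 0.05, against 16.9% of all genes. The 22 count all tested members, of which 3 were too low in liver to be called measured there.

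Col6a1 (ENSRNOG00000001249) ran from 10.1 to 30.5 CPM (median 24.8) in vehicle livers and from 28.3 to 44.4 CPM (median 33.3) in CagriSema livers. In quadriceps it ran from 66.4 to 127 CPM (median 87.5) with vehicle and from 41.5 to 74.8 CPM (median 61.8) with the drug. Most CagriSema livers (5 of 7) lay above every vehicle liver and most CagriSema quadriceps (5 of 8) below every vehicle quadriceps, so both pairs of groups overlapped in part. Col6a1 rose in liver (0.55, adjusted p = 0.0469), its quadriceps value was -0.62 (adjusted p = 0.0889), and the difference was 1.17 ± 0.22 (adjusted p = 0.0102 by edgeR), or 0.81 ± 0.19 (adjusted p = 0.0768) without the 4 libraries. Col6a2, whose gene is the next coding neighbour of Col6a1 in RefSeq's GRCr8 annotation, encodes another chain of the same fibril. It ran from 14.7 to 19.9 CPM (median 16.9) in vehicle livers and from 20.5 to 27.3 CPM (median 21.2) in CagriSema livers, with no overlap. In quadriceps it ran from 60.3 to 136 CPM (median 88.5) and from 45.0 to 79.5 CPM (median 64.3). Its difference was 0.99 ± 0.19 (adjusted p = 0.0102), and 0.75 ± 0.18 (adjusted p = 0.107) without the 4 libraries.

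Sparc (ENSRNOG00000012840) fell in quadriceps, from 218 to 421 CPM (median 332) with vehicle to 191 to 238 CPM (median 200) with the drug. Its liver groups overlapped widely, at 70.9 to 105 CPM and 75.9 to 105 CPM. The quadriceps change was -0.67 ± 0.11 (adjusted p = 0.00433), the liver value 0.10 ± 0.11 (adjusted p = 0.630) and the difference 0.77 ± 0.16 (adjusted p = 0.0173). The repeat without the 4 gave a quadriceps value of -0.55 ± 0.11 (adjusted p = 0.106) and a difference of 0.70 ± 0.15 (adjusted p = 0.0623).

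Several members just missed the threshold. Bgn, the gene of the proteoglycan biglycan, had a difference of 1.30 ± 0.30 (adjusted p = 0.0509), Col3a1 of fibrillar collagen III one of 1.40 ± 0.34 (adjusted p = 0.0571) and Col1a1 of fibrillar collagen I one of 1.77 ± 0.44 (adjusted p = 0.0652). Col1a1 fell in quadriceps by 1.42 on the log2 scale (adjusted p = 0.0256), a call that was lost without the 4 libraries (-1.13, adjusted p = 0.368). In that repeat the differences were 0.65 for Bgn (adjusted p = 0.428), 0.91 for Col3a1 (0.429) and 1.47 for Col1a1 (0.407). Its level there was 116 to 516 CPM (median 324) with vehicle and 81.0 to 189 CPM (median 136) with the drug. The liver held 1.94 to 5.16 CPM and 2.90 to 5.40 CPM of it.

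In the basement membrane list all 14 members had a positive difference (50.3% of all genes measured in both tissues), with a median of 0.63 (0.41 in liver, -0.25 in quadriceps), and Sparc and Col4a2 passed (0.193% of all such genes). Col4a2 (ENSRNOG00000023972) encodes a chain of collagen IV. It ran from 4.26 to 23.6 CPM (median 14.5) in vehicle livers, from 13.7 to 25.3 CPM (median 20.8) in CagriSema livers, from 63.7 to 103 CPM (median 80.1) in vehicle quadriceps and from 41.7 to 67.5 CPM (median 53.6) in CagriSema quadriceps. The lowest vehicle liver was library 4 and the highest vehicle quadriceps library 2. The difference was 1.15 ± 0.25 (adjusted p = 0.0311), and 0.77 ± 0.19 (adjusted p = 0.123) without the 4 libraries. Its partner chain Col4a1 stood at 0.88 ± 0.21 (adjusted p = 0.0509). Of the laminin genes, Lama4 had a difference of 0.81 ± 0.20 (adjusted p = 0.0629) and Lamb2 rose in liver (0.51, adjusted p = 0.0262) with a quadriceps value of 0.01. Without the 4 libraries Col4a1 stood at 0.61 (adjusted p = 0.342), Lama4 at 0.61 (0.249), and the liver value of Lamb2 was 0.30 (0.0511), so that its call was lost.

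Col4a1 and Col4a2 are read in opposite directions from starts that lie close together, and their differences were of like size. The stretch between the 2 starts is shown because it is upstream of both genes. It is chr16:84885521-84885596 on the plus strand of GRCr8 (RefSeq), 76 bases long. Capitals mark the one match of the GC box GGGCGG, which lies on the minus strand.

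Col4a1-Col4a2 interval: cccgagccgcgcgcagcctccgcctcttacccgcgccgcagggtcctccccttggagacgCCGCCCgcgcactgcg

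The motifs searched were GGGCGG and CCAAT, on both strands, and CCAAT was not in these letters. Of the stretches of 76 bases before the start of each of 27457 genes with a promoter entry, 19.3% held GGGCGG and 13.0% held CCAAT. The match is a description of the letters and not of a binding site. Of the 21 genes, 18 had a promoter entry.

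Without the 4 libraries the matrix pattern was smaller and held no called gene. The vehicle quadriceps among the 4 had been set apart by their high sums of fibroblast and stellate markers, which share genes with the matrix list. Leaving out vehicle libraries picked in this way tends by itself to shrink a fall of matrix genes in quadriceps. For the matrix genes, here and above, the smaller values and lost calls of the repeat are therefore not an independent test. The 19 collagen and matrix genes still all had a positive difference, with a median of 0.70 (0.30 in liver, -0.43 in quadriceps), and 11 had an unadjusted p under 0.05, against 871 of all 10354 genes in this fit, of which 5447 were positive. Of the 14 basement membrane genes 13 had a positive difference, with a median of 0.43. The marker values that follow are from all libraries unless said otherwise. The 12 fibroblast and stellate markers, of which Col1a1, Col3a1, Dcn and Lum are also on the matrix list, summed to 4125 to 7302 CPM (median 5049) in vehicle quadriceps and 4285 to 5170 CPM (median 4622) in CagriSema quadriceps. In liver they summed to 544 to 1048 CPM (median 828) and 628 to 924 CPM (median 719). Of the 10 measured in both tissues 9 had a positive difference, with a median of 0.65 (9 of 10 and 0.59 without the 4 libraries), and none of the 12 was at 0 throughout a tissue. The 11 endothelial markers summed to 210 to 430 CPM in vehicle livers and 346 to 476 CPM in CagriSema livers, with the lowest sum in vehicle library 6, and 8 of the 9 measured in both tissues had a positive difference, with a median of 0.35 (6 of 9 and 0.24 without the 4 libraries). The part of these cells in the result was not tested. In bulk RNA, fewer cells of a type and less RNA per cell cannot be told apart.

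**Figure D3:**
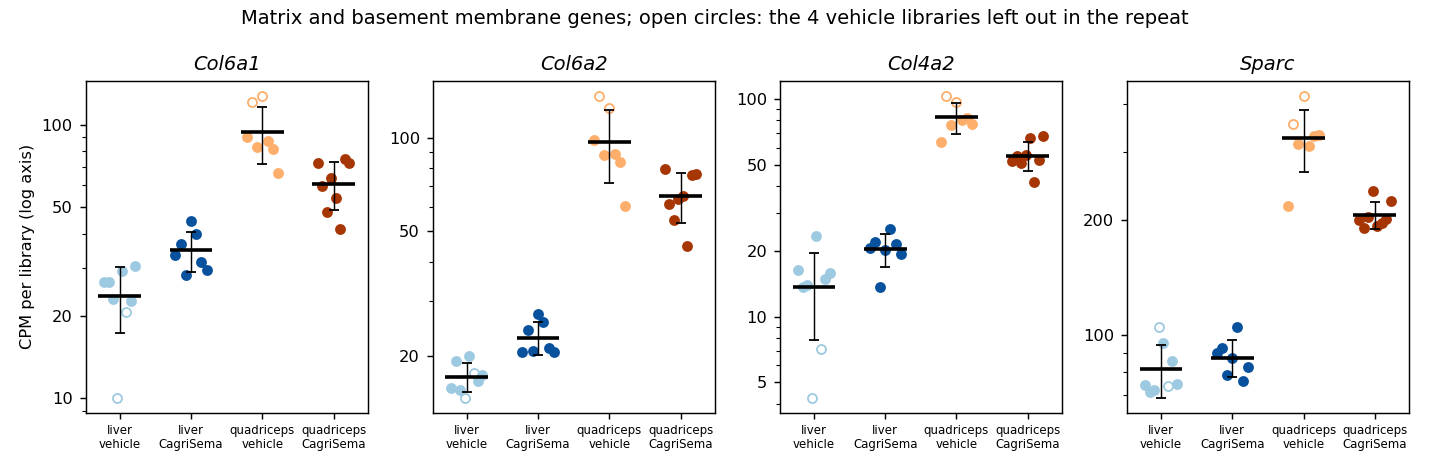
Level of Col6a1, Col6a2, Col4a2 and Sparc in CPM (log axis) in each of the 30 libraries, with lines for the group mean and bars for 1 SD. Open circles are the 4 vehicle libraries left out in the repeat; in quadriceps they are the 2 highest vehicle values of each of these genes, and with the drug the quadriceps medians are 61.8, 64.3, 53.6 and 200 CPM.

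Other genes with a higher change in liver had varied roles. Vcam1, an adhesion molecule for white blood cells, differed by 1.32 ± 0.29 (adjusted p = 0.0308). Its level was 4.55 to 10.1 CPM (median 6.92) and 6.92 to 14.3 CPM (median 7.81) in vehicle and CagriSema livers, and 1.64 to 3.82 CPM (median 2.07) and 0.891 to 1.87 CPM (median 1.12) in quadriceps. Both pairs of groups overlapped. Akap12, which anchors protein kinase A, rose in liver from 1.42 to 5.55 CPM (median 4.09) to 5.50 to 8.95 CPM (median 6.72), with a difference of 0.97 ± 0.21 (adjusted p = 0.0308).

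Mtss1, a membrane-bending protein gene, rose in liver from a median of 223 to 291 CPM and had a quadriceps value of -0.40 ± 0.12 (adjusted p = 0.187), a difference of 0.83 ± 0.17 (adjusted p = 0.0164). Tspan9, a tetraspanin gene, fell in quadriceps from a median of 68.7 to 43.1 CPM, with 124 CPM in vehicle library 2, and differed by 1.02 ± 0.21 (adjusted p = 0.0205). Arfip1, the gene of a Golgi protein that binds small GTPases, and AABR07068316.1 fall outside the rule by which genes were named and were added after their values were seen. They differed by 0.59 ± 0.13 (adjusted p = 0.0300) and 1.35 ± 0.25 (adjusted p = 0.0102). In the repeat without the 4 libraries these 6 genes kept a positive difference and none passed, at 1.18 for Vcam1 (0.123), 0.86 for Akap12 (0.0648), 0.74 for Mtss1 (0.1), 0.61 for Tspan9 (0.140), 0.51 for Arfip1 (0.140) and 0.84 for AABR07068316.1 (0.117), all by edgeR with adjusted p in brackets.

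Casz1, the gene of a zinc finger transcription factor, had a difference of 1.95 ± 0.42 (adjusted p = 0.0167) that rests on few reads. It had 0 to 3 counts per vehicle liver (10 in all, 3 libraries at 0) and 3 to 9 per CagriSema liver (41 in all). That is 0.0913 CPM (exact Poisson interval 0.0438 to 0.168) and 0.411 CPM (0.295 to 0.557), intervals that cover counting error only. In quadriceps it ran from 47.0 to 63.6 CPM with vehicle and from 47.4 to 58.9 CPM with the drug. Without the 4 libraries the difference for Casz1 was 1.88 (adjusted p = 0.0653).

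Among the genes lower in liver, Tymp encodes thymidine phosphorylase. It fell in liver from 258 to 468 CPM (median 342) to 163 to 284 CPM (median 218) and had a quadriceps value of 0.06 ± 0.12, a difference of -0.79 ± 0.17 (adjusted p = 0.0308). Mreg, the gene of melanoregulin, fell in liver from 139 to 229 CPM (median 179) to 99.2 to 139 CPM (median 124), a difference of -0.72 ± 0.16 (adjusted p = 0.0308). Dyrk1b, a kinase gene, fell in liver from a median of 12.9 to 9.60 CPM, a difference of -0.66 ± 0.15 (adjusted p = 0.0488). None of these 3 passed in quadriceps. The gene mrpl9, also outside the naming rule, encodes a mitochondrial ribosomal protein. It fell in liver from a median of 30.3 to 22.3 CPM and stood at 44.5 and 46.8 CPM in quadriceps, a difference of -0.52 ± 0.10 (adjusted p = 0.0133). Leaving out the 4 libraries gave differences of -0.69 for Tymp (adjusted p = 0.140), -0.50 for Mreg (0.201), -0.51 for Dyrk1b (0.166) and -0.36 for mrpl9 (0.0852).

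Myh4 and Acta1, the genes of fast myosin heavy chain and skeletal muscle actin, had the largest differences of all 21, at -6.10 ± 1.36 (adjusted p = 0.0308) and -6.16 ± 1.499 (adjusted p = 0.0488). Both values came from vehicle liver library 1. Myh4 stood there at 35.9 CPM (505 counts), while the other 7 vehicle livers held 20 counts together and the 7 CagriSema livers 7. Acta1 stood there at 18.5 CPM (260 counts), against 5 and 3 counts in the others. In that library 8 myofibre markers summed to 90.8 CPM, and in the other 14 livers to between 2.39 and 5.68 CPM. Without it the differences were -1.70 (adjusted p = 0.165) for Myh4 and -0.89 (adjusted p = 0.638) for Acta1. Leaving out the other 4 vehicle libraries, which keeps this one, gave -6.44 (adjusted p = 0.0429) and -6.57 (adjusted p = 0.0547). In quadriceps, Myh4 ran from 50595 to 90956 CPM with vehicle and from 68115 to 87854 CPM with the drug, with a log2 value of 0.10 ± 0.56.

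**Figure D4:**
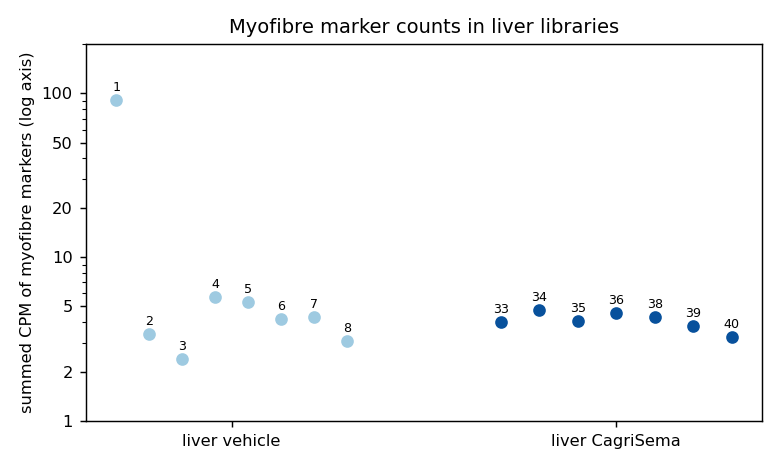
Summed CPM of 8 myofibre marker genes (log axis) in the 8 vehicle and 7 CagriSema liver libraries, each point labelled with its library number. Vehicle library 1 stands at 90.8 CPM and the other 14 between 2.39 and 5.68 CPM.

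Across the metabolic lists the differences were smaller and some depended on the 4 vehicle libraries. The 42 nuclear genes of oxidative phosphorylation, the respiratory chain of mitochondria, had a median difference of -0.55 (-0.46 in liver, 0.10 in quadriceps). Of them 1 had a positive difference (50.3% of all genes did), 29 had an unadjusted p under 0.05 (16.9% of all genes) and none passed. Atp5i of ATP synthase had the lowest p, at -1.10 ± 0.32 (adjusted p = 0.117). Without the 4 libraries the median was -0.02, 16 were positive and 1 had an unadjusted p under 0.05, beside 5447 and 871 of all 10354 genes. The 32 ribosomal protein genes likewise went from a median of -0.42 to -0.01. Ribosomal protein genes took 1.87% of the counts of vehicle liver 4, against 0.657% to 0.891% in the other vehicle livers and 0.698% to 0.839% in CagriSema livers. Vehicle liver 4 had been set apart by this share, so leaving it out tends by itself to shrink a fall of these genes in liver. For the ribosomal protein genes the repeat is therefore not an independent test. Fatty acid oxidation (30 genes) went from -0.29 to -0.15, the proteasome (31 genes) from -0.17 to 0.02 and the acute phase and complement list (9 genes) from 0.31 to -0.23, so the last 2 changed sign. No gene of these lists passed for the tissue difference between drug and vehicle in either fit. In liver itself, 5 of the 42 tested oxidative phosphorylation genes and 1 of 33 for fatty acid oxidation fell past the threshold with all libraries (1.96% of all genes). Without the 4 libraries 0 of either list did. The quadriceps median of the acute phase and complement list went from -0.21 to 0.05. Vehicle quadriceps 2, left out in the repeat, held the highest hepatocyte marker sum of the 15 quadriceps (49.5 CPM, vehicle median 0.693). CagriSema quadriceps 40 and 39, kept in both fits, held 19.7 and 14.9 CPM, and the lowest CagriSema sum was 0.137 CPM. Whether these libraries made this list change sign was not tested.

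The cholesterol synthesis list had a larger median once the 4 libraries were left out. With all libraries, 18 of its 24 genes had a positive difference and the median was 0.40 (0.15 in liver, -0.14 in quadriceps). Hsd17b7, which acts in the later part of the pathway, had a difference of 0.999 ± 0.25 (adjusted p = 0.0689). None of the 25 tested passed. In the repeat 23 of 24 were positive, the median was 0.53 and none passed.

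**Figure D5:**
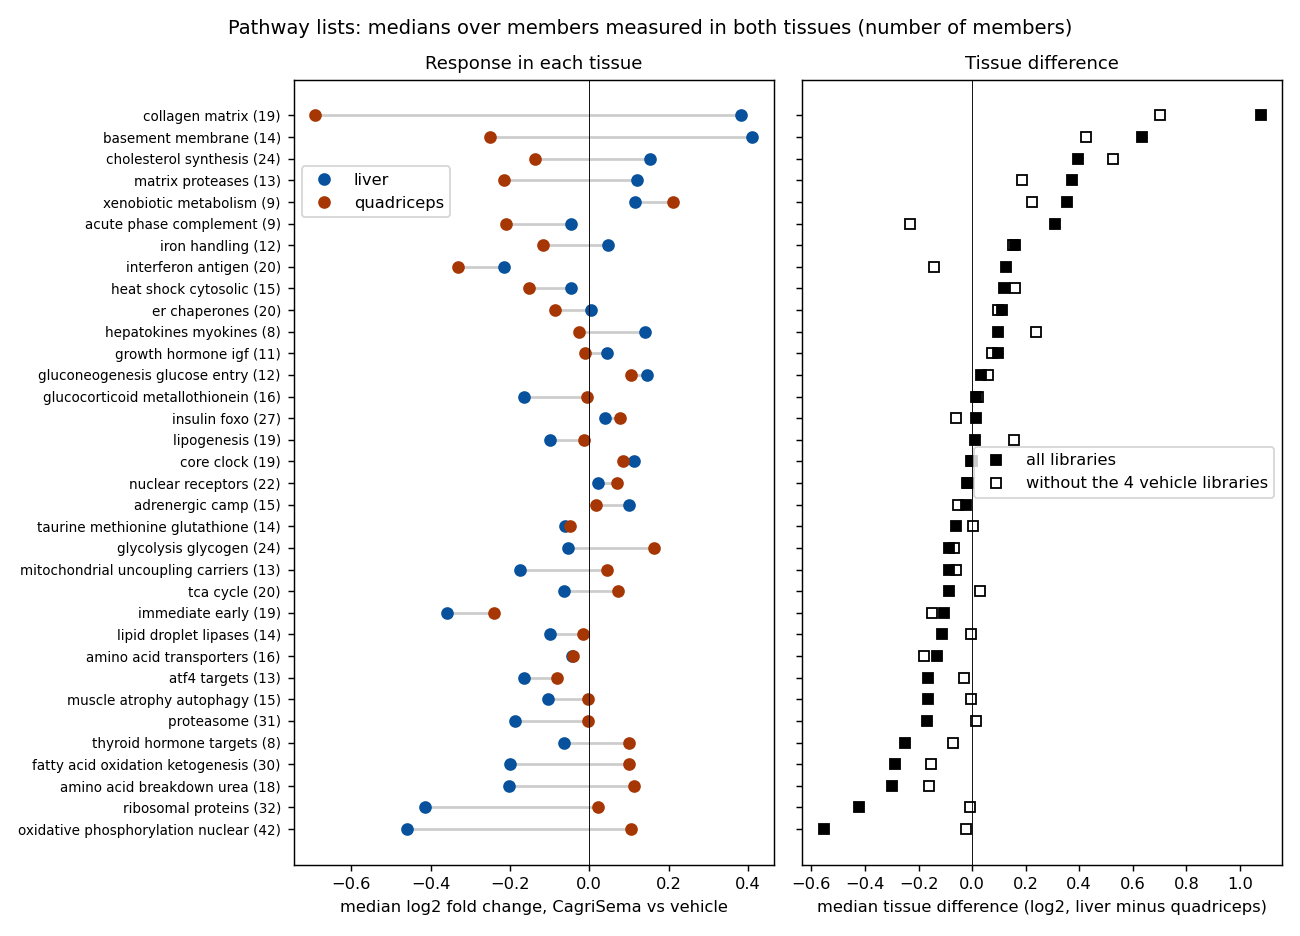
Left, median log2 fold change for CagriSema against vehicle in liver (blue) and quadriceps (brown) over the members of each pathway list that were measured in both tissues, with their number in brackets. Right, the median difference between tissues with all libraries (filled) and without the 4 vehicle libraries (open); the collagen list stands at 1.08 and 0.70, oxidative phosphorylation at -0.55 and -0.02.

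Weight matching against vehicle, which shares the vehicle libraries with the drug comparison, gave a tissue difference in 389 genes (2.76%). For the genes above its values stand beside those of the drug as follows. Col6a1 had a difference of 1.24 ± 0.22 with weight matching and 1.17 with the drug, Sparc 0.95 ± 0.16 and 0.77, and Col4a2 1.18 ± 0.25 and 1.15. Csad had 0.96 ± 0.24 and 1.27, Ccdc126 -0.80 ± 0.19 and -1.20, Rnf144b -0.67 ± 0.19 and -1.14, and Vgll4 -0.49 ± 0.23 and -1.22. The direct test of the drug against weight matching holds no vehicle library in its contrast, and it found 3 genes (0.0213%; 1031 at an unadjusted p under 0.05, 7.31%). None of the 21 genes was among them.

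For the matrix genes the direct comparison gave values near 0. Col6a1 stood at -0.07 ± 0.22, Col6a2 at -0.15 ± 0.18, Sparc at -0.18 ± 0.16 and Col4a2 at -0.03 ± 0.25 (log2 ± SE), and the 19 genes of the collagen and matrix list had a median of 0.04 with 10 positive. Vgll4 stood at -0.73 ± 0.24 (adjusted p = 0.297), Rnf144b at -0.47 ± 0.19 (adjusted p = 0.490), Ccdc126 at -0.40 ± 0.19 (adjusted p = 0.672) and Csad at 0.31 ± 0.24 (adjusted p = 0.903). These did not pass, which does not show that drug and weight matching acted alike on them.

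Of the genes that did pass, Zpr1 and Vdr are described here, named after their values were seen. Zpr1, a zinc finger protein gene, stood at -0.73 ± 0.14 (adjusted p = 0.0445). For Vdr, which encodes the receptor of vitamin D, the value was -2.05 ± 0.41 (adjusted p = 0.0445), with 0.223 to 1.76 CPM in CagriSema livers and 2.16 to 5.17 CPM in weight-matched livers.

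The 24 cholesterol synthesis genes measured in both tissues all had a positive difference in this direct test, with a median of 0.63, against 5130 of all 10354 genes. Of the 24, 16 had an unadjusted p under 0.05 against 774 of all 10354 genes at an unadjusted p under 0.05. Without the 4 vehicle libraries, none of which is in this contrast, 140 of 14261 genes passed (0.982%), and the median of the 24 was again 0.63; the filter, the scaling and the estimate of the spread were made anew. Acat2 (1.42 ± 0.34, adjusted p = 0.0300), Mvd (1.14 ± 0.27, adjusted p = 0.0290) and Nsdhl (0.57 ± 0.15, adjusted p = 0.0467), 3 genes of cholesterol synthesis also named after their values were seen, were among them. So was mrpl9, at -0.47 ± 0.08 (adjusted p = 0.00162).

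Of the receptor genes for the 2 drug components, Glp1r had 0 counts in all 30 libraries, and a limit of 3 counts per group corresponds to 0.0271 to 0.0310 CPM over the 4 groups. Calcr had 0 counts in all 15 livers and 3 to 16 counts per quadriceps library, with 0.714 CPM (exact Poisson interval 0.555 to 0.903) with vehicle and 0.578 CPM (0.445 to 0.738) with the drug. Ramp3 was too low to test. Ramp1 had a tissue difference of 0.10 ± 0.35 (95% interval -0.58 to 0.79) and Ramp2 one of -0.19 ± 0.27 (-0.73 to 0.34), and neither passed.

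Other genes of fasting, stress and growth, taken whether or not they passed, did not pass either. Per1 of the circadian clock had 0.54 ± 0.23 (adjusted p = 0.264). Igf1, the growth factor gene that liver secretes, had -0.41 ± 0.24 (adjusted p = 0.425), and Klf15, a regulator of amino acid use, -0.27 ± 0.19 (adjusted p = 0.510). Pdk4, which holds back glucose oxidation, had 0.19 ± 0.52 (adjusted p = 0.911). Pck1 of gluconeogenesis had medians of 3643 CPM in vehicle livers and 2224 CPM in CagriSema livers (log2 value -0.75, adjusted p = 0.0929) and of 1.01 and 1.03 CPM in quadriceps, with a difference of -0.78 ± 0.49 (adjusted p = 0.454). Mt1, a metallothionein gene, fell in liver from a median of 60.5 to 14.8 CPM (-1.92, adjusted p = 0.00263) and had medians of 0.594 and 0.429 CPM in quadriceps, with a difference of -0.74 ± 0.80 (adjusted p = 0.706). Fgf21, a hormone of fasting, and Ucp3, a mitochondrial carrier of muscle, were each near 0 in the other tissue, and their 95% intervals were wide, at -2.84 to 0.97 and -3.20 to 5.54. In the fit without the 4 libraries none of these genes passed for the tissue difference, and the fall of Mt1 in liver was -1.69 (adjusted p = 0.0116).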

How the data were processed

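Gene counts of 46 bulk RNA libraries were used as deposited: whole-number counts per gene, not normalized, for 32552 genes. Per the labels' protocols RNA was taken with an RNeasy Minikit and libraries made with a Twist UMI system. The submitters' processing notes name fastp 0.23.1 and STAR 2.5.2b. No source used here names the build or the counting program, or says whether molecular identifiers were collapsed. Columns were matched by title, and 1 column that matched no sample was not used.

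Counts were fitted in edgeR 4.0.16 (R 4.3.3) with robust quasi-likelihood over 6 groups and 46 libraries, after filterByExpr (14110 genes) and TMM scaling. Benjamini-Hochberg adjustment ran over all genes, with a threshold of 0.05. Standard errors are the log2 value over the root of the F statistic. CPM are TMM-scaled. Measured in both tissues means a mean of at least 1 CPM in each over the 30 libraries. Alternatives used DESeq2 1.42.0 and limma 3.58.1. The test was run on simulated data. Among 105 pairs of libraries in each tissue, chi-square divided by its degrees of freedom was at least 15.4 in liver and 7.58 in quadriceps, so no pair differed by less than sampling noise. A count of 0 was read as at most 3 counts.

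The rule, the genes named whatever their result, and the 42 pathway and 14 marker lists were chosen with earlier results of these data known. Of 1007 list genes, 35 had no row. Named were, among genes past the threshold with a proper symbol, the 8 largest differences each way in genes measured in both tissues. Added were the 4 largest each way in genes measured in 1 tissue at 5 CPM or more, up to 2 per pathway list, and further genes taken in any case. Other names were chosen after their values were seen. Some results are not reported here.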

Additional observations from a re-analysis of the deposited data

Results flagged for a closer look

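The response to CagriSema differed between liver and quadriceps, by the test of the difference itself, for 21 genes. In log2, liver minus quadriceps, the positive differences were Casz1 1.95, AABR07068316.1 1.35, Vcam1 1.32, Csad 1.27, Col6a1 1.17, Col4a2 1.15, Tspan9 1.02, Col6a2 0.99, Akap12 0.97, Mtss1 0.83, Sparc 0.77 and Arfip1 0.59. The negative ones were mrpl9 -0.52, Dyrk1b -0.66, Mreg -0.72, Tymp -0.79, Rnf144b -1.14, Ccdc126 -1.20, Vgll4 -1.22, Myh4 -6.10 and Acta1 -6.16.

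Single libraries far from the rest of their group were looked for in 164 sets of values, each a gene, a marker sum or a read share within 1 group, and 21 were found. Chance gives about 1 in 20 for independent sets of normally distributed values. These sets share libraries and were not on a log scale, so that rate is only a rough guide. Of the 21, 7 were in vehicle liver 4. There Csad stood at 256 CPM, Ramp1 at 6.98 CPM, Ramp2 at 7.22 CPM, Igf1 at 1962 CPM, summed erythroid markers at 736 CPM, summed cholangiocyte markers at 48.6 CPM and the ribosomal protein share at 1.87%. Vehicle liver 1 stood apart with Myh4 at 35.9 CPM, Acta1 at 18.5 CPM and summed myofibre markers at 90.8 CPM, and vehicle liver 6 with Dyrk1b at 19.4 CPM and a mitochondrial share of 9.29%.

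In vehicle quadriceps 2 there were 5: Casz1 at 63.6 CPM, Tspan9 at 124 CPM, and summed markers of hepatocytes at 49.5 CPM, of erythroid cells at 782 CPM and of cholangiocytes at 213 CPM. The remaining 4 were mrpl9 at 25.6 CPM in CagriSema liver 38, Ramp1 at 7.27 CPM in CagriSema quadriceps 33, Pck1 at 3.28 CPM in CagriSema quadriceps 39 and summed erythroid markers at 320 CPM in CagriSema quadriceps 38.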

How the results depend on the processing

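The 21 genes were read in each refit, which gave 857 pairs of a gene and a setting. None of these reversed, and 173 no longer passed. The refits share most of their libraries and are not independent. The count of 21 was 21 with TMM within each tissue, 22 with limma voom and quality weights (12 shared with the 21) and 24 with a separate spread for each tissue. It was 181 with DESeq2 (all 21 among them), 13 without a filter, 43 over genes of at least 1 CPM in each tissue, 9 with the 30 libraries alone (8 shared), 9 without the 4 vehicle libraries, 34 without vehicle livers 4 and 6 and 3 without vehicle quadriceps 2 and 5. The last 2 and the separate spread were chosen after seeing the data.

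In the same order, the liver count of 429 was 924 with DESeq2, 199 without a filter, 86 with 30 libraries, 157 without the 4 and 106 without livers 4 and 6. The quadriceps count of 14 was 82 with DESeq2, 6 with voom, 2 with 30 libraries, 0 without the 4, 42 without livers 4 and 6 and 0 without quadriceps 2 and 5. The weight-matching count of 389 was 791 with DESeq2, 172 with voom, 224 without a filter, 190 without the 4 and 157 without quadriceps 2 and 5. The count of 3 for drug against weight matching was 50 with DESeq2, 112 with voom, 0 without a filter, 7 over genes of at least 1 CPM, 140 without the 4, 69 without livers 4 and 6 and 13 without quadriceps 2 and 5. The cause was not tested.

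Leaving out 1 library gave 11 to 53 genes. It moved the count by over 1.5 times without vehicle livers 2 (36), 4 (39), 5 (53) and 7 (48), CagriSema livers 33 (11), 34 (13) and 39 (47), and vehicle quadriceps 1 (48), 4 (34), 5 (11) and 6 (34). For the liver count the range was 141 (without vehicle liver 6) to 1002 (without vehicle liver 7), and for quadriceps 1 (without CagriSema quadriceps 35) to 54 (without vehicle quadriceps 8); such moves came with 11 and 13 of 30 libraries. Csad, Col6a1, Col6a2, Mtss1, Vgll4, Ccdc126, Rnf144b, mrpl9 and AABR07068316.1 passed in all 30 fits. Sparc was lost without vehicle quadriceps 5 (adjusted p = 0.0567 by edgeR), Tspan9 without CagriSema liver 33 (0.0511), Casz1 without CagriSema liver 33 or 36 (up to 0.0536) and Mreg without vehicle liver 6, CagriSema liver 33, vehicle quadriceps 5 or CagriSema quadriceps 37 (up to 0.0745). Arfip1 was lost in 6 fits, Myh4 in 7, Tymp in 8, Akap12 and Col4a2 in 9, Vcam1 in 10, Dyrk1b in 18 and Acta1 in 19.

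Liver and quadriceps libraries share numbers, but the labels do not tie them to 1 animal. Deviations from the group mean correlated by over 0.1 for 13 of 22 numbers (-0.003 to 0.26). Compared with every quadriceps library of the series, 12 livers correlated best with the one of their own number. The main fit does not use the numbers, so a pairing, if there is one, is ignored there. With the number as a block 10 genes passed, 9 of them among the 21 (Csad, Col6a1, Col6a2, Tspan9, Ccdc126, Rnf144b, Mreg, mrpl9 and AABR07068316.1), and 283 with weight matching and 0 for drug against weight matching. Of the genes that did not pass, Ramp1 changed sign with voom (-0.0341), with the block (-0.0454) and in leaving out 1 library (-0.1951 to 0.2841, lowest without vehicle quadriceps 8). Ramp2 did so with voom (0.0806), without livers 4 and 6 (0.0676) and in leaving out 1 library (-0.2917 to 0.0827, highest without vehicle liver 4), and Ucp3 without CagriSema liver 39 (-0.0485).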
